A study of Mus musculus with 8 samples.

Results

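The miR-200 family, miR-203, miR-205 and miR-375 were measured with 9 of the 517 mouse miRNA assays of a real-time PCR profile of early atherosclerotic plaque and vessel wall of normal appearance. The 9 assays were chosen by name: mmu-miR-200a, mmu-miR-200b, mmu-miR-200c, mmu-miR-141, mmu-miR-141*, mmu-miR-429, mmu-miR-203, mmu-miR-205 and mmu-miR-375, written below without the species prefix. A star marks the less abundant strand of a hairpin in the old catalogue that the assay names follow. Of the 9, 2 were detected often enough in both tissues for a test of level, 4 were detected in some samples and 3 in none.

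The plaque group held 4 samples of laser-captured plaque from the aortic root of female apoe-/- mice after 3 months of high fat diet. The undiseased group held 4 samples of laser-captured, morphologically normal wall, labelled artery, from mice of the same sex, genotype, age label and diet. Mice of this genotype lack apolipoprotein E and develop plaques on a fat-rich diet, and the undiseased tissue carries the deletion and the diet too. The labels give an age of 6 to 8 weeks without saying at which point of the study. Whether plaque and undiseased tissue were cut from the same animals is not stated. Tissue of at least 40 sections per mouse, each 20 µm thick, was collected. Because plaque is labelled aortic root and undiseased tissue artery, a difference by vessel site cannot be told apart from one by plaque.

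miRNAs are short RNAs that are cut from hairpin precursors and lower the output of messenger RNAs matching their seed. The miR-200 family keeps epithelial cells epithelial, mainly by repressing the transcription factors Zeb1 and Zeb2, which in turn repress the miR-200 genes. miR-203 restrains the stem cell state of stratified skin, miR-205 is a miRNA of skin and gland epithelium, and miR-375 is abundant in pancreatic islets and other neuroendocrine cells. An arterial wall contains endothelium, smooth muscle, fibroblasts and leukocytes but no epithelium.

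RefSeq (build GRCm38.p6) held the mature sequence of 8 of the 9 members. They are printed 5′ to 3′ with the seed, bases 2 to 8, in capitals, because the seed decides which members share targets and because the assays that gave signal and those that did not differ at few bases.
miR-200b: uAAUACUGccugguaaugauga
miR-200c: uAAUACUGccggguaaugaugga
miR-429: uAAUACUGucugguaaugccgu
miR-200a: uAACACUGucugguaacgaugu
miR-141: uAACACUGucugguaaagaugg
miR-141*: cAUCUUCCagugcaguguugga
miR-203: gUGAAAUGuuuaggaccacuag
miR-205: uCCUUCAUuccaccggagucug
miR-200b, miR-200c and miR-429 share 1 seed, and miR-200a and miR-141 share another. Counted from the 5′ end, miR-200c differs from miR-200b by U11G and A22G over the 22 bases compared, and has 1 base more. miR-141 differs from miR-200a by C17A and U22G. The 2 seeds of the family differ by U4C (miR-200b to miR-200a).

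The family is encoded in 2 clusters. Mir200b (chr4:156055681-156055750), Mir200a (chr4:156054896-156054985) and Mir429 (chr4:156053905-156053987) lie on the minus strand within 1846 bases, in the annotated long noncoding RNA gene Gm13648. Mir200c (chr6:124718322-124718390) and Mir141 (chr6:124717914-124717985) lie on the minus strand 336 bases apart, overlap no other annotated gene and have Phb2 and Ptpn6 as their nearest protein-coding neighbours. Mir203 is at chr12:112130880-112130955 on the plus strand, overlapping the miRNA gene Gm51289. Mir205 is at chr1:193507463-193507530 on the minus strand in the noncoding gene Mir205hg. Mir375 is at chr1:74900658-74900721 on the minus strand between Cryba2 and Cfap65. The hairpin of Mir141 is shown with both annotated arms in capitals, the 5′ arm being miR-141* and the 3′ arm miR-141, since these strands differed in detection.
Mir141: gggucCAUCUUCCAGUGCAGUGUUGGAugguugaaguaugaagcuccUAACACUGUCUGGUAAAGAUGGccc

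The readout was the raw threshold cycle (Ct), the number of PCR cycles run until the signal passes a threshold. A later Ct stands for less of that RNA in the reaction. A Ct under 35 counted as detected, and assays that did not amplify were entered as exactly 40. Samples differed in Ct over all miRNAs, and the reach of each sample, given below, bears on every member. RNA input was not measured here. Plaque samples detected 148 to 240 of the 517 miRNAs and undiseased samples 227 to 288. Over the 124 miRNAs that every sample detected, the raw Ct averaged 28.0 ± 1.65 in plaque and 25.3 ± 0.885 in undiseased artery (SD, n = 4 each, exact permutation test, two-sided, p = 0.0571). It was latest in plaque 2 (28.8) and plaque 3 (29.9), and among the undiseased samples in undiseased artery 4 (26.6). The panels did not shift alike: the mean Ct of these miRNAs ran from 26.3 to 30.4 in plaque and from 24.2 to 26.4 in undiseased artery on panel 1, and from 26.3 to 29.0 in plaque and from 25.6 to 27.1 in undiseased artery on panel 2. The control RNA U6 was latest in plaque 1 (19.98), not in plaque 2 (18.4) or plaque 3 (19.2). Levels given below are cycles before this sample mean, on a log2 scale provided that each cycle doubles the product, which the data do not show. In such bulk tissue, fewer cells of a type and less RNA per cell cannot be told apart.

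Of 5 muscle miRNAs listed, 3 to 5 were detected per plaque sample and all 5 in each undiseased sample. In plaque 2, miR-133b and miR-1 were at 40. Of these 5, 2 were called lower in plaque (adjusted p under 0.05) and 0 higher. Over all 172 tested miRNAs 18.6% were called lower, and 27.5% of the 109 on panel 1, where these 5 stand. The 2 called were miR-143 (log2 difference -4.95, SE 0.521, limma adjusted p = 9.0e-05) and miR-145 (-5.30, SE 0.476, adjusted p = 3.5e-05), the pair that marks contractile smooth muscle. The others, which are miRNAs of striated muscle too, were not called: miR-133a (-0.26, adjusted p = 0.879), miR-133b (1.10, adjusted p = 0.0947) and miR-1 (0.61, adjusted p = 0.523). The part of the shift of miR-143 and miR-145 in the lower miR-203 and the fewer members detected in plaque was not tested. Both arms of the endothelial miR-126 were detected in all 8 samples and did not pass (-1.15, adjusted p = 0.291, and -2.02, adjusted p = 0.0655). Of 5 leukocyte miRNAs listed, 4 were tested, with 1 called higher in plaque and 0 lower. Called higher were 15.7% of all 172 tested, and 7 of the 109 on panel 1, where these stand. The 1 called was miR-155 (2.79, SE 0.635, limma adjusted p = 0.0117). Of the 5, 2 were detected in more undiseased than plaque samples, against 33.7% of all 517 assays. The erythroid miR-451 did not pass (-1.56, adjusted p = 0.0878). Of 3 heart muscle miRNAs listed, 1 was detected in any sample. It was miR-208, with a Ct of 31.4 in plaque 1 and of 34.0 in plaque 3, and undetected in the other plaque and all undiseased samples. miR-499 and miR-208b were detected in none, and miR-208b read 35.9, past the cutoff, in undiseased artery 2. Detection in more plaque than undiseased samples was found for 4.64% of all 517 assays.

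Epithelial miRNAs were detected in fewer plaque than undiseased wells. Over the 9 assays, 10 of 36 plaque wells (27.8%) and 17 of 36 undiseased wells (47.2%) had a Ct under 35, while over all 517 miRNAs the shares were 38.4% in plaque and 51.0% in undiseased artery. The number of members detected was 3, 3, 1 and 3 in plaque 1 to 4, and 5, 5, 5 and 2 in undiseased artery 1 to 4. Undiseased artery 1 to 3 stood above every plaque sample, and undiseased artery 4 did not. Of the 72 member wells, 27 were detected, 45 were entered as 40 and 0 lay between, so raising the cutoff to 38 or 40 changed no member's detection.

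**Figure D1:**
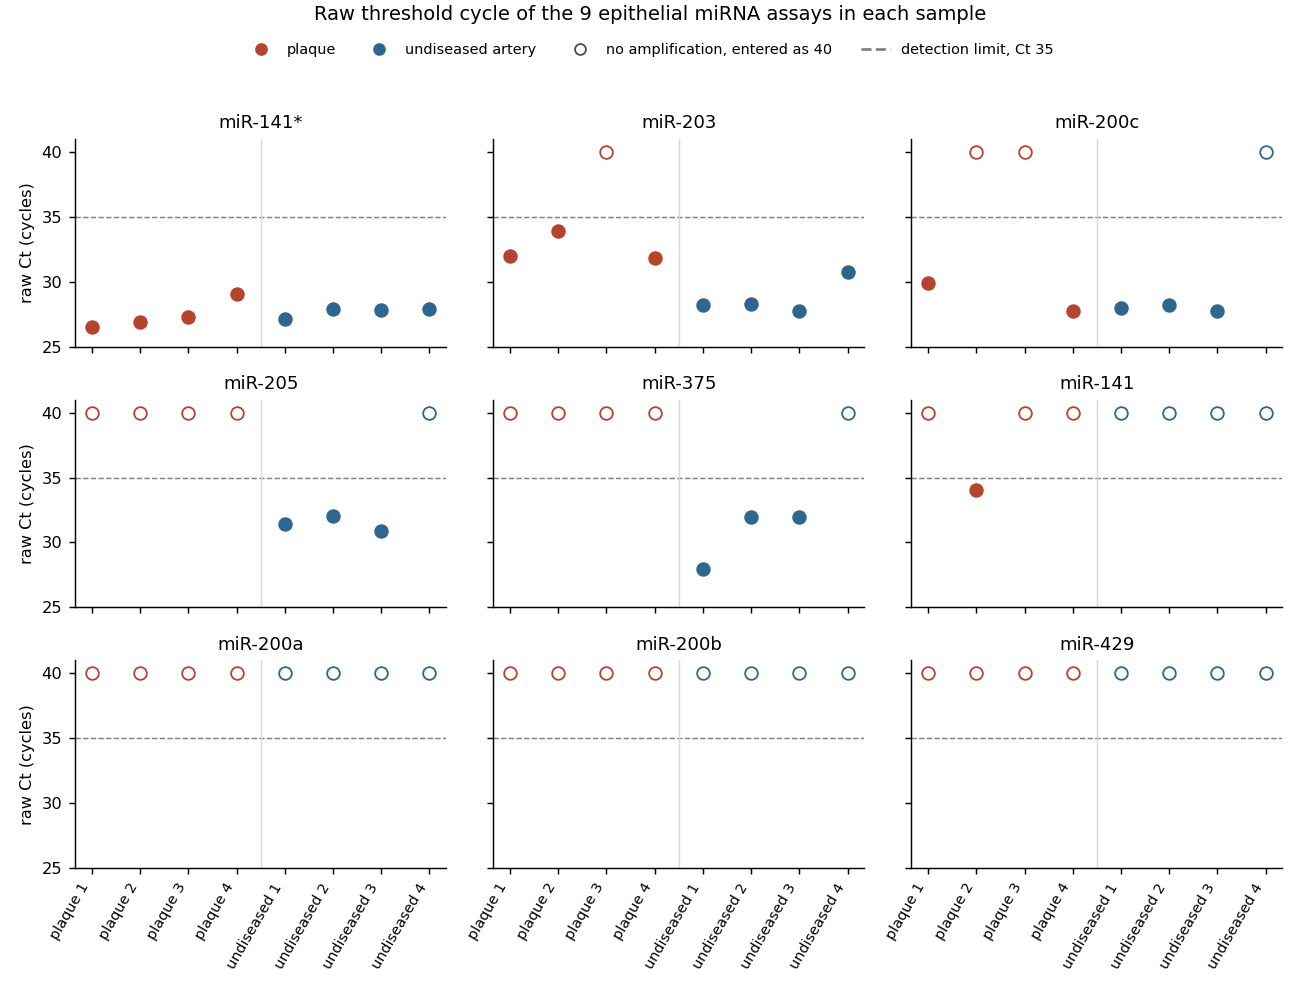
Raw Ct in cycles (vertical axis, later means less of that RNA in the reaction) of each of the 9 assays in the 4 plaque and the 4 undiseased artery samples (horizontal axis). Filled points are detected wells, open points at 40 are wells without amplification, and the dashed line is the limit of 35. miR-141* was detected in every sample, miR-205 and miR-375 in undiseased artery 1 to 3 alone, and miR-200a, miR-200b and miR-429 in none.

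None of the 3 miRNAs of the chromosome 4 cluster was detected. miR-200b and miR-429, which carry the same seed as miR-200c, and miR-200a, which carries that of miR-141, were entered as 40 in all 4 plaque and all 4 undiseased samples. Of all 517 assays, 175 (33.8%) were entered as 40 in every sample, and 30.7% of the 335 on panel 1, where these 3 assays stand. Counting also those that reached only a Ct of 35 or later, 180 assays (34.8%) were detected in none. The cutoff of 35 sets the limit of this statement. A Ct of 35 corresponds to a level of -7.87, -6.16, -5.07 and -8.74 in plaque 1 to 4, and of -9.98, -10.0, -10.3 and -8.35 in undiseased artery 1 to 4. A miRNA at a lower level than these would not have been seen, and the limit was highest, so least sensitive, in plaque 3. The star strands of the 3 other miR-200 hairpins on the panels gave little more: miR-200b* and miR-200c* were detected in 0 of 8 samples and miR-200a* in 1, undiseased artery 3 (Ct 34.0).

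miR-200c, from the chromosome 6 cluster, was either well detected or absent. Its raw Ct was 29.9 in plaque 1 and 27.8 in plaque 4, with no amplification in plaque 2 and 3. In undiseased artery 1 to 3 it was 28.0, 28.2 and 27.7, with none in undiseased artery 4. The 3 samples without signal were the 2 plaque samples with the latest mean Ct and the undiseased sample with the latest mean Ct, and the detecting samples of both groups overlapped. Detection in 2 of 4 plaque and 3 of 4 undiseased samples gave a p of 1.0 (Fisher's exact test, two-sided). No assay passed that test after adjustment over the 213 assays detected in 1 to 7 samples (0.0%), and at an unadjusted p under 0.05 there was 1 of 213 (0.469%).

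The levels of miR-200c among detecting samples were -2.76 and -1.51 in plaque, against -2.98, -3.18 and -3.05 in undiseased artery. It was not among the miRNAs tested, which needed detection in 3 of 4 samples of each group. With that minimum lowered to 2, its log2 difference was 0.94 (SE 0.642, 95% interval -0.56 to 2.43, limma, adjusted p = 0.310), with 2 plaque and 3 undiseased samples. The mean level of the 5 detecting samples would have placed the Ct at 31.5 in plaque 2, 32.6 in plaque 3 and 29.3 in undiseased artery 4, where no signal was recorded. Such gaps were common: over all miRNAs detected in 1 to 7 samples, 635 of 847 undetected wells (75.0%) had an expected Ct under 35 by the same reckoning, and 297 (35.1%) one under 32. Since the expected values come from the detecting samples alone, they lean towards early cycles. The assays detected in exactly the same 5 samples as miR-200c were 4 in number. By root mean square difference of the levels over those 5 samples, each assay centred on its own mean, the nearest was miR-324-3p (0.291), followed by miR-186* (0.868) and miR-376a (1.09).

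The strands of the Mir141 hairpin differed sharply in detection. miR-141, the 3′ strand with the miR-200a seed, had a Ct of 34.0 in plaque 2 and none in the 3 other plaque samples or in undiseased artery (Fisher's exact test, p = 1.0). Its 1 detected well lay 0.973 cycles before the limit. At that level, a single well, miR-141 would have read 32.3, 35.1 and 31.5 in plaque 1, 3 and 4, and 30.2, 30.2, 29.9 and 31.8 in undiseased artery 1 to 4, where 40 was entered. Only in plaque 3 would that level not have counted as detected. Among all miRNAs, 50 assays (9.67%) were detected in exactly 1 sample, and miR-124* was the 1 other assay detected in plaque 2 alone.

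miR-141*, the 5′ strand, was detected in all 8 samples, as were 124 of all 517 assays (24.0%). Of the 93 hairpins with both a named strand and its star strand on the panels, 4 had the star strand in all 8 samples and the other strand in 0 or 1 (miR-135a, miR-141, miR-467b and miR-485). The star strand was detected in more samples than its partner in 23 of the 93, in fewer in 50 and in equally many in 20. The assay of miR-141 stands on panel 1 and that of miR-141* on panel 2, which are separate reactions, and the part of the panel in this contrast was not tested.

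The raw Ct of miR-141* hardly moved between samples. It was 26.5, 26.9, 27.3 and 29.0 in plaque 1 to 4, against 27.1, 27.9, 27.8 and 27.9 in undiseased artery 1 to 4. Plaque 1 to 3 gave Ct values as early as or earlier than most undiseased samples, and plaque 4 gave the latest of all 8. The SD over the 8 samples was 0.781 cycles, the 8th smallest of the 124 miRNAs detected in every sample, whose median was 2.23. The sample mean Ct itself had an SD of 1.89 and spanned 5.24 cycles, against 2.50 for miR-141*. Assays on panel 2 varied less in general, with a median SD of 1.32 over 42 miRNAs, against 2.51 over 82 on panel 1. Among those 42 on panel 2, the SD of miR-141* was also the 8th smallest.

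**Figure D2:**
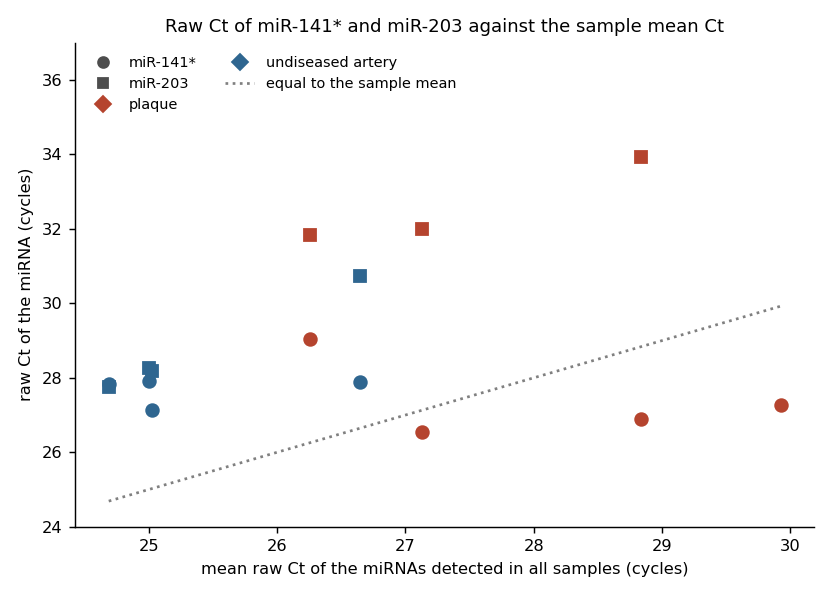
Raw Ct of miR-141* (circles) and miR-203 (squares) in cycles, against the mean over the 124 miRNAs common to all samples, one point per detecting sample, plaque in red and undiseased artery in blue. The dotted line marks a Ct equal to the sample mean. miR-203 is latest where the mean is latest, in plaque 2 among the plaque samples that detected it and in undiseased artery 4 among the undiseased ones, while miR-141* stays between 26.5 and 29.0 over means of 24.7 to 29.9.

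Set against the sample mean, miR-141* was higher in plaque. Its levels were 0.59, 1.95, 2.64 and -2.78 in plaque 1 to 4, against -2.11, -2.92, -3.15 and -1.25 in undiseased artery 1 to 4. Plaque 1 to 3 lay above all undiseased samples, and plaque 4 lay among them, so the groups overlapped. The mean was 0.60 ± 2.41 in plaque and -2.36 ± 0.86 in undiseased artery (SD, n = 4 each), a log2 difference of 2.96 (SE 1.01), or 7.78-fold, with an adjusted p of 0.0428 (limma, two-sided, Benjamini-Hochberg over 172 miRNAs). Both members that could be tested, this one and miR-203, were called, as were 34.3% of the 172 tested miRNAs in either direction, and 15.7% were called higher in plaque. The split of calls into 27 higher and 32 lower in plaque moved with the scaling: it was 0 and 81 on raw Ct, 11 and 37 with quantile normalization, and 0 and 2 with the control RNAs as well as with U6. The median log2 difference of the tested miRNAs was -2.59 on raw Ct, -1.02 with quantile normalization, -0.40 with the control RNAs and -0.44 with U6. On panel 2 the share called higher was 31.7% (20 of 63), with a median log2 difference of 0.82, so the call of miR-141* was 1 of many in that direction on its panel.

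The call of miR-141* rested on the reference, although centring on the median kept it (2.90, adjusted p = 0.0372). On raw Ct the difference was 0.26 (adjusted p = 0.824), and with the 2 panels centred separately it was 1.88 (adjusted p = 0.144). Without plaque 2 and 3, the samples with the latest mean Ct, it was 1.26 (adjusted p = 0.294). With the sample mean Ct as a covariate it turned to -0.37 (adjusted p = 0.800). These last 2 settings were chosen after seeing the data. Among the 8 fits that left out 1 sample, the call held in 1, without plaque 4 (4.09, adjusted p = 0.00292). The miRNAs most like miR-141* over the 8 samples, by the same distance, were miR-29b* (0.728), miR-764-5p (0.785) and miR-875-5p (0.797), all on panel 2. In raw Ct, miR-764-5p ran from 26.8 to 28.2 and miR-29b* from 27.5 to 28.7 over the 8 samples. Both ranges were narrower than that of miR-141*, 26.5 to 29.0.

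**Figure D3:**
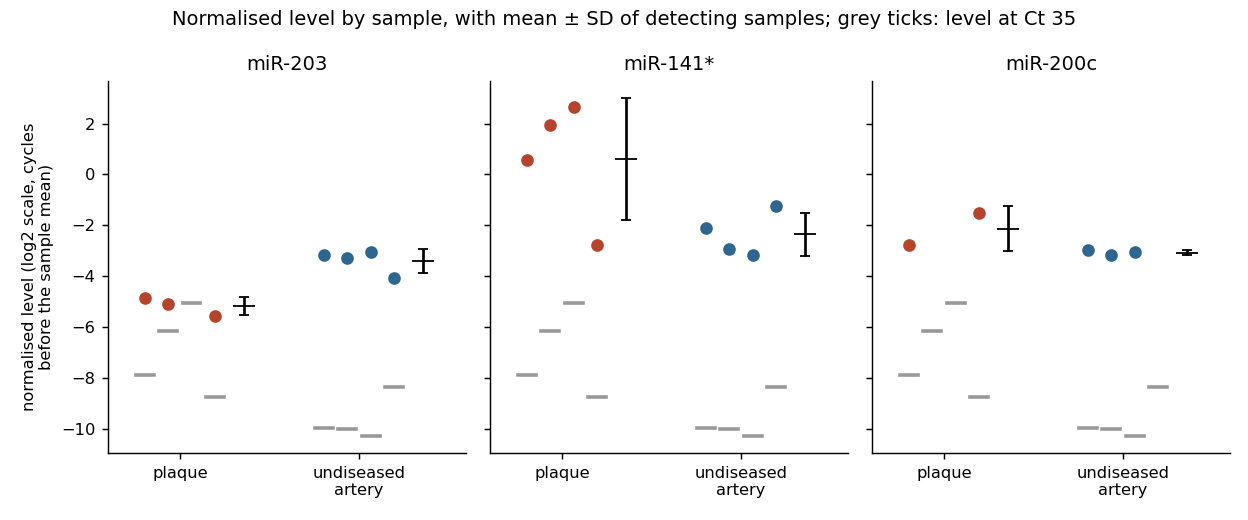
Normalised level (cycles before the sample mean, log2 scale) of miR-203, miR-141* and miR-200c in plaque, left, and undiseased artery, right. Points are detecting samples, black bars are their mean ± SD and grey ticks are the level that a Ct of 35 stands for in each sample. The plaque points of miR-203 lie below all its undiseased points, and plaque 4 of miR-141* lies among the undiseased points.

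miR-203, the skin miRNA, was lower in plaque. Its raw Ct was 31.98, 33.9 and 31.8 in plaque 1, 2 and 4, with no amplification in plaque 3, against 28.2, 28.3, 27.8 and 30.7 in undiseased artery 1 to 4. The levels were -4.86, -5.11 and -5.57 in plaque 1, 2 and 4, against -3.16, -3.27, -3.06 and -4.09 in undiseased artery 1 to 4. All 3 detecting plaque samples lay below all 4 undiseased samples. The mean was -5.18 ± 0.36 in plaque (SD, n = 3) and -3.40 ± 0.47 in undiseased artery (SD, n = 4), a log2 difference of -1.78 (SE 0.494), that is 3.44-fold lower in plaque, with an adjusted p of 0.0268 (limma). Of the 172 tested miRNAs 18.6% were called lower in plaque, 27.5% of the 109 on panel 1, where miR-203 stands. The share of tested miRNAs with every detecting plaque sample below every undiseased one was also 18.6%.

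For miR-203 in plaque 3, entered as 40, the expected Ct lay near the cutoff of 35. A Ct of 35 stood for a level of -5.07 in that sample. The level of plaque 1 was above it, that of plaque 2 (-5.11) almost on it and that of plaque 4 below it. At the mean level of the 7 detecting samples, miR-203 would have read 34.1 in plaque 3, 0.915 cycles before the limit. With the missing value set to Ct 35, the difference was -1.76 (adjusted p = 0.0223). The difference was below 0 under each of the 20 settings that gave a value, but its size and its call depended on the setting. Not all 20 were separate checks, since miR-203 had no value in plaque 3. Omitting plaque 2 and 3 gave the same difference as omitting plaque 2 (-1.82). The replicate block gave the same difference as omitting undiseased artery 3 (-1.67). It was -3.85 on raw Ct (14.4-fold lower, adjusted p = 0.0121) and -2.64 with quantile normalization (6.24-fold lower, adjusted p = 0.0206). The call was lost with the control RNAs as reference (-1.99, adjusted p = 0.288), with the replicate number as a block (-1.67, adjusted p = 0.0799) and with the sample mean Ct as a covariate (-1.50, adjusted p = 0.212, chosen after seeing the data). The difference was -1.34 with the panels centred separately (adjusted p = 0.0575), where the detecting plaque samples still lay below all undiseased ones (-5.57 to -4.90 against -4.33 to -3.53). With U6 as reference the difference was -2.03 (adjusted p = 0.508), and the groups overlapped (-17.7 to -12.0 in plaque against -14.4 to -12.0 in undiseased artery). The call was lost without undiseased artery 1, 2 or 3 and held in the 5 other fits that left out 1 sample (-2.01 to -1.59 over all 8). Among those 5, the fit without plaque 3 could only repeat the difference of -1.78. Detection itself, with 3 of 4 plaque and 4 of 4 undiseased samples positive, did not pass Fisher's exact test (p = 1.0). A further 29 assays were detected in the same 7 samples. Those nearest to miR-203 over them were miR-28 (0.228), miR-301a (0.511) and miR-103 (0.552).

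**Figure D4:**
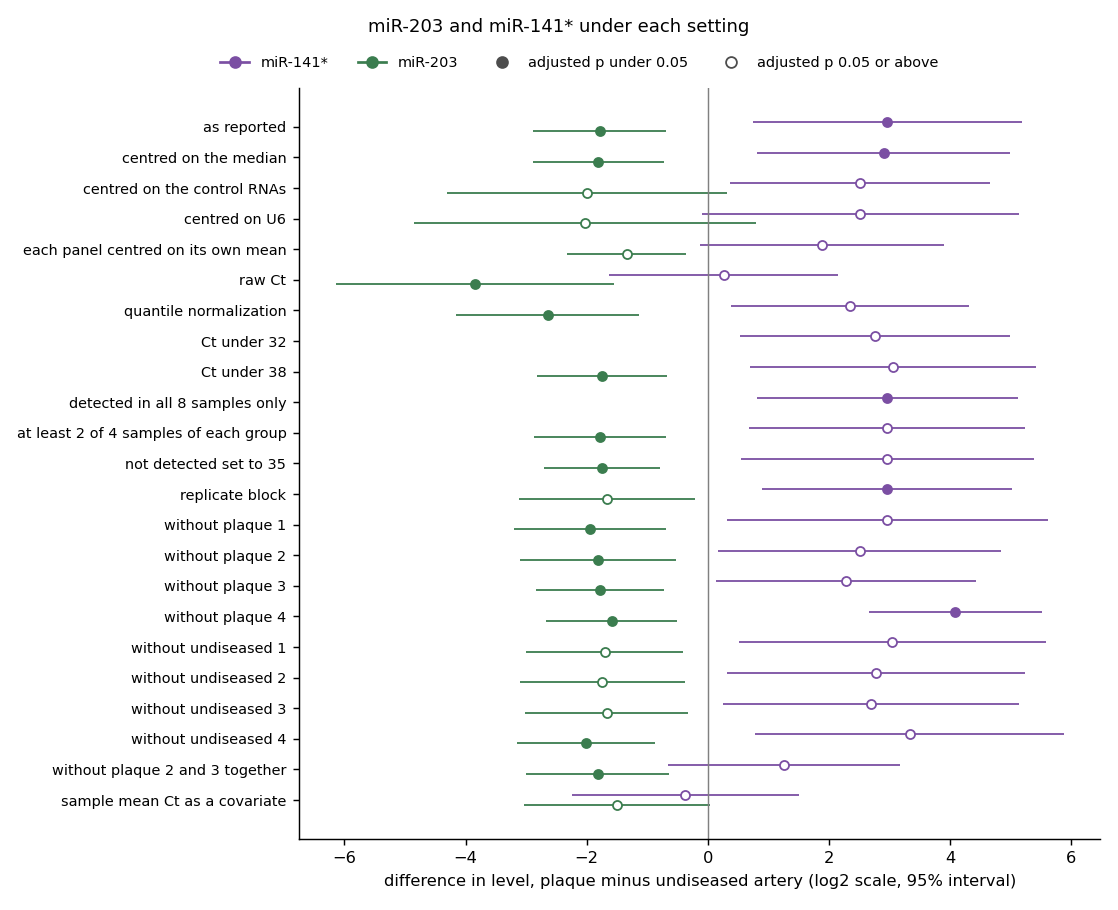
Difference in level between plaque and undiseased artery (log2 scale, with 95% interval) of miR-203 in green and miR-141* in purple, under each setting named on the vertical axis. Filled points have an adjusted p under 0.05. miR-203 stays below 0, from -3.85 on raw Ct to -1.34 with panels centred, while miR-141* runs from -0.37 with the sample mean Ct as a covariate to 4.09 without plaque 4.

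miR-205 and miR-375 were detected in undiseased artery alone. miR-205, of skin and gland epithelium, had no amplification in plaque 1 to 4, against a raw Ct of 31.4, 32.01 and 30.9 in undiseased artery 1 to 3 and none in undiseased artery 4. miR-375, of islets and neuroendocrine cells, likewise had none in plaque 1 to 4, against 28.0, 31.9 and 31.9 in undiseased artery 1 to 3 and none in undiseased artery 4. Detection in 0 of 4 plaque and 3 of 4 undiseased samples gave a p of 0.143 for each (Fisher's exact test, two-sided, adjusted p = 1.0), and 0.0286 is the smallest p that 4 against 4 allows. No fold is given, since 1 undiseased sample did not detect them either. The levels of miR-205 were -6.41, -7.01 and -6.18 in undiseased artery 1 to 3. Those of miR-375 were -2.95, -6.94 and -7.23, so that undiseased artery 1 stood about 4 cycles above the other two.

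How far these levels lay from the limit differed between plaque samples. All levels of miR-205, and the lower 2 of miR-375, were below the limit of plaque 3 (-5.07) and above those of plaque 1 (-7.87) and plaque 4 (-8.74), while miR-375 in undiseased artery 1 was above the limit of every plaque sample. At the mean level of the detecting samples, miR-205 would have read 33.7 in plaque 1, 35.4 in plaque 2, 36.5 in plaque 3 and 32.8 in plaque 4, and 33.2 in undiseased artery 4. For miR-375 the values would be 32.8, 34.5, 35.6 and 31.97 in plaque 1 to 4, and 32.4 in undiseased artery 4. Plaque 1 and 4 could therefore have shown both miRNAs at that level, while plaque 2 and 3 could not have shown miR-205, nor plaque 3 miR-375. The value of miR-375 leaned on undiseased artery 1. From the 2 other detecting samples (mean level -7.09) the expected Ct was 34.2, 35.9, 37.01 and 33.3 in plaque 1 to 4. In plaque 2, miR-375 would then not have counted as detected either. When every sample was read to the same limit, a centred Ct under 5.07 as in plaque 3, miR-205 was detected in 0 of 4 plaque and 0 of 4 undiseased samples. miR-375 was then detected in 0 of 4 plaque samples and in 1 of 4 undiseased samples, undiseased artery 1. At this limit, miR-203 was detected in 1 of 4 plaque and 4 of 4 undiseased samples, again with a p of 0.143 by Fisher's exact test.

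Exactly the same detection, undiseased artery 1 to 3 alone, was found for 7 of 517 assays (1.35%), all on panel 1. Besides miR-205 and miR-375 these were let-7a, miR-124, miR-18a, miR-329 and miR-382. let-7a, a widely expressed miRNA, had a raw Ct of 22.0 to 22.3 in the 3 detecting samples and no amplification in the 5 others, where its mean level would have given a Ct of 23.5 to 27.1. Neither that limit nor the Ct cutoff separates those let-7a wells, so this detection pattern also occurs far from the limit, and its cause was not tested. Over the 3 detecting samples, let-7a was nearest to miR-205 (0.418) and miR-382 nearest to miR-375 (0.485). Of the 239 miRNAs detected in undiseased artery 1 to 3, 26 (10.9%) were not detected in undiseased artery 4, and miR-200c, miR-205 and miR-375 were among them. Of the 517 assays, 24 (4.64%) were detected in more plaque than undiseased samples and 174 (33.7%) in more undiseased than plaque samples. With 0 plaque and at least 3 undiseased samples positive there were 12 assays (2.32%), and with at least 3 plaque and 0 undiseased samples positive there were 0 (0.0%).

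Other miRNAs of epithelia and glands, read from lists, were mostly detected in undiseased artery as well. Of 7 further skin, sensory and glandular miRNAs, 6 were detected in at least 1 sample, with 1 to 4 per plaque sample and 3 to 6 per undiseased sample. In this list 5 were detected in more undiseased than plaque samples and 0 in fewer, against 33.7% and 4.64% of all 517 assays. The Ct of detecting samples did not follow 1 direction. miR-184 read 28.6 and 27.9 in plaque 1 and 4, earlier than the 29.8 to 33.9 of undiseased artery. miR-224 read 31.95 and 31.3 in plaque 1 and 4, later than the 25.3 to 27.5 of undiseased artery. miR-31, a keratinocyte miRNA, was the 1 tested and did not pass (log2 difference -1.81, limma adjusted p = 0.121), and miR-182 of the miR-183 cluster was detected in 1 of 4 plaque and 3 of 4 undiseased samples. Of 5 pancreatic and endocrine miRNAs, 0 had a Ct under 35 in any plaque sample and 1 or 2 in each undiseased sample. Of these 5, 2 were detected in more undiseased than plaque samples and 0 in fewer, against 33.7% and 4.64% of all 517 assays. In that list miR-7a was detected in 2 and miR-7b in 3 undiseased samples, while the acinar miRNAs miR-216a, miR-216b and miR-217 were at 40 in all 8.

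Of 5 neuronal miRNAs listed, all were detected in at least 1 sample, 1 to 3 per plaque sample and 3 to 5 per undiseased sample. In this list 4 were detected in more undiseased than plaque samples, against 33.7% of all 517 assays. Of the 2 tested, miR-218 was called lower in plaque (log2 difference -2.89, SE 0.705, limma adjusted p = 0.0146) and miR-138 did not pass (-1.89, adjusted p = 0.277). Called lower were 18.6% of all 172 tested miRNAs and 27.5% of the 109 on panel 1, where both stand. The defining miR-124 was at 40 in all 4 plaque samples, against a Ct of 26.3, 27.9 and 27.9 in undiseased artery 1 to 3. The part of nerve or gland tissue in the detection of miR-375 and miR-205 was not tested.

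Lists that would mark other epithelia did not follow 1 direction. In the list of multiciliated epithelium, both tested members were called higher in plaque, as were 15.7% of all 172 tested miRNAs. They were miR-34b-3p (3.86, SE 0.693, adjusted p = 0.00422) and miR-34c* (1.74, SE 0.583, adjusted p = 0.0407, limma). miR-34b-3p stands on panel 1, where 7 of 109 were called higher, and miR-34c* on panel 2, where 20 of 63 were. Of the 6 listed on the panels, 2 were detected in more undiseased than plaque samples, against 33.7% of all 517 assays. miR-34b-3p and miR-34c* belong to the p53-induced miR-34 family, which is not limited to epithelium. In the gut, liver and kidney list of 4, miR-192 was the 1 tested and did not pass (0.85, limma adjusted p = 0.240). The hepatocyte miRNA miR-122 was detected in plaque 1 alone (Ct 28.0). miR-194 was detected in 2 of 4 plaque and 4 of 4 undiseased samples, and miR-215 in none. So 1 of the 4 was detected in more undiseased and 1 in more plaque samples, against 33.7% and 4.64% of all 517 assays. Among the miRNAs of fibroblasts and other mesenchyme, 7 of 8 listed were on the panels and 5 were tested. Of these 5, 0 were called, against 34.3% of all 172 tested miRNAs. The median log2 difference of the 5 was 0.09, against -0.11 over those 172 and -0.73 over the 109 on panel 1, where the 5 stand. Of the 7, 2 were detected in more undiseased than plaque samples and 0 in fewer, against 33.7% and 4.64% of all 517 assays. These 2 were miR-199a-5p, in 0 of 4 plaque and 3 of 4 undiseased samples, and miR-10b, in 0 of 4 and 1 of 4.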

How the data were processed

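The deposited table holds raw threshold cycles (a score in PCR cycles, with no sign of normalisation or filtering) for 8 samples on 2 panels, 335 and 182 miRNA assays. Per the labels' protocols, total RNA came from laser-captured sections through the RecoverAll kit, with FAM probes. The sources used here do not give the instrument, reverse transcription, preamplification or threshold setting, and the 10-month diet arm was not analysed here. The title of plaque 4 says replicate 4 and its description replicate 3, and the title was used.

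Ct under 35 counted as detected. Each sample was centred on the mean Ct of the 124 miRNAs detected in all 8. The 172 miRNAs detected in at least 3 samples per group went into a two-sided limma test (version 3.58.1, R 4.3.3, lmFit then eBayes) with group as the only term and undetected values missing. The Benjamini-Hochberg adjustment ran over all 172, with a threshold of 0.05. Detection was compared by Fisher's exact test (scipy 1.17.1) and sample measures by exact permutation over 70 arrangements. Errors are SD over samples or limma's SE. The labels call the samples biological replicates. RNA input per sample was not known. The mean raw Ct stands in for depth, and 4 samples per group limit the precision. The steps were tested on simulated data.

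The members, lists and tests were chosen with earlier results of these data known. All 9 members were named, with up to 3 of the nearest assays for each member that was detected. Alternatives were other references, cutoffs, filters, a replicate block and omission of each sample.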

Additional observations from a re-analysis of the deposited data

Results flagged for a closer look

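In groups of 4, a sample was singled out when its distance to the nearest other sample exceeded Dixon's critical share of the group's range at the 95% level, which chance alone gives in about 1 of 20 groups. Of 12 such checks, 4 passed that share. Undiseased artery 1 stood apart in the raw Ct of miR-141*, with 27.1, while undiseased artery 2 to 4 read 27.8 to 27.9 (0.895 of the range). The number of members detected set plaque 3 apart, with 1 member against 3 in each other plaque sample, and undiseased artery 4, with 2 against 5 in each other undiseased sample (1.0 of the range in both groups). These are whole-number counts in which 3 samples tie, where the ratio is always 1.0, so the chance of 1 in 20 does not apply to them. The mean raw Ct set undiseased artery 4 apart as well, at 26.6 against 24.7 to 25.0 in undiseased artery 1 to 3 (0.83 of the range). Plaque 3 and undiseased artery 4 had the latest mean Ct of their groups.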

How the results depend on the processing

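The fall of miR-203 (-1.78) kept its direction under all 20 alternatives that gave a value, some of which could only repeat another because plaque 3 held no value. The call was lost with control RNAs (-1.99, adjusted p = 0.288), U6 (-2.03), each panel centred (-1.34), the replicate block (-1.67, adjusted p = 0.0799) and the sample mean Ct as a covariate (-1.50, adjusted p = 0.212), and leaving out 1 sample gave -2.01 to -1.59 with the call lost without undiseased artery 1, 2 or 3. A cutoff of 32 or the restriction to miRNAs detected in all samples left miR-203 untested. The rise of miR-141* (2.96) reversed with the covariate (-0.37). It was not called with control RNAs (2.51, adjusted p = 0.195), U6 (2.51, adjusted p = 0.470), each panel centred (1.88), raw Ct (0.26), quantile normalization (2.35, adjusted p = 0.0658), a cutoff of 32 (2.76, adjusted p = 0.0505) or 38 (3.06, adjusted p = 0.0520), a minimum of 2 samples per group (2.96, adjusted p = 0.0511), undetected values at 35 (2.96, adjusted p = 0.0651) or without plaque 2 and 3 (1.26). Leaving out 1 sample gave 2.28 to 4.09, with the call kept only where plaque 4 was omitted. It was called with the median, with miRNAs detected in all samples and with the replicate block (2.96, adjusted p = 0.0397). The causes were not tested. Calls over all miRNAs numbered 59, with 2 under control RNAs, 2 under U6, 35 with panels centred, 36 without plaque 2 and 3, 13 with the covariate and 19 to 79 with 1 sample left out. The replicate block left 49. Both groups carry numbers 1 to 4, but same-numbered deviations from the group means correlated at 0.13, 0.191, -0.245 and -0.155, so these numbers were not taken as a pairing. The share of samples detecting miR-200c, 25.0 percentage points lower in plaque, became 25.0 points higher without plaque 2 and 3. Detection differences could hardly pass at this size (smallest p 0.0286 for 4 against 4, lowest adjusted p 1.0 over 213 assays), so their not passing says nothing about stability. Without undiseased artery 4, miR-205 and miR-375 reached an unadjusted p of 0.0286 (Fisher's exact test, adjusted p = 0.606). The difference in members detected per sample (-1.75) ran from -2.50 to -1.25. The late mean Ct of plaque 2 and 3 limits what their absences can show.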
